A study of Mus musculus with 12 samples.

Results

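The genes described here encode the proteins of the muscle sarcomere and the abundant soluble proteins of the muscle fibre. They were chosen by name, as a fixed list of actins, troponins, tropomyosins, myosin light chains, myosin-binding proteins, Z-disc and M-band proteins, titin, nebulin and 3 cytosolic fibre proteins, and the list holds 39 of the 55401 genes in the count table. RNA was sequenced from mouse Pax7-ZsGreen+ satellite cells, the stem cells of skeletal muscle, sorted by flow cytometry from hind limbs. Quiescent libraries came from freshly sorted cells (4 WT and 4 KO), and activated libraries from sorted cells that were kept in culture overnight (2 WT and 2 KO). All mice carried homozygous floxed Cxcr4 alleles and the Pax7-ZsGreen reporter. KO mice also carried Pax7-creERT2, a tamoxifen-dependent Cre driven from the Pax7 locus, whereas WT mice lacked it. Every mouse received tamoxifen at 80 mg/kg on 5 consecutive days, so exposure to tamoxifen was shared by all groups and the Cre allele was not carried by the controls. The age and sex of the mice were not in the labels. The labels did not state whether each library came from a different mouse, so the p-values below measure the spread between these libraries, which may be partly technical.

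The sarcomere is the repeating contractile unit of striated muscle, in which thin filaments of actin, tropomyosin and troponin slide past thick filaments of myosin. Thin filaments are anchored at the Z-disc, thick filaments are cross-linked at the M-band, and titin spans from one to the other. Many of these proteins exist as isoforms used mainly by fast fibres, by slow fibres, or by developing and cardiac muscle. Satellite cells are mononuclear and hold no sarcomeres, and they switch these genes on when they differentiate and fuse into fibres.

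Library depth was 12775593 to 23717013 counts in the 8 quiescent libraries and 3172164 to 5427280 in the 4 activated libraries. Levels are given as CPM (counts relative to the library total, scaled by the trimmed mean of M-values), and levels of different genes are compared only as CPM per kb of exon. Cxcr4, the targeted gene, stood at 59.1 to 112 CPM in WT and 12.5 to 21.2 CPM in KO quiescent libraries, and at 33.3 and 14.4 CPM in WT and 5.39 and 13.7 CPM in KO activated libraries. The genotypes did not overlap in either state, by a wide margin in quiescent and a narrow one in activated libraries. That narrow margin lay between WT library 2 and KO library 2 and depended on their scaling factors, 0.720 and 0.874. The ribosomal RNA gene CT010467.1 took 0.295 to 0.807% of the counts in quiescent libraries but 12.6% and 40.3% in the activated WT libraries numbered 1 and 2, and 11.5% and 28.8% in the activated KO libraries numbered 1 and 2. Xist was at 1.20 to 7.17 CPM in quiescent and 451 to 817 CPM in activated libraries, while the Y-linked gene Ddx3y was at 289 to 570 CPM in quiescent and 0 to 2.28 CPM in activated libraries. By these transcripts all quiescent libraries read as male and all activated libraries as female. State, sex as read from these transcripts, depth and ribosomal RNA share therefore cannot be told apart in any comparison of activated with quiescent libraries.

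The members differed mainly between the states. In activated libraries the 8 fast members tested and 18 of 20 members shared between fibre types were called higher in both genotypes, by up to 54.2-fold in WT (Mylpf, the fast regulatory light chain) and 61.5-fold in KO (Myl1, the fast essential light chain), whereas slow isoforms changed less and Myl4, the embryonic and atrial light chain, was lower. Of all genes tested, 9.59% were called higher in activated WT and 11% in activated KO. No member was called between KO and WT in quiescent or in activated libraries, where 0.0155% and 0.0504% of all genes were. At such low shares, 0 calls among the members does not set them apart from other genes. Of the 39 members, 38 had enough counts to be tested. A gene was called when its adjusted p in edgeR's quasi-likelihood test across all genes was under 0.05, its log2 fold change beyond 1 in size and its mean normalized count over 10.

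**Figure D1:**
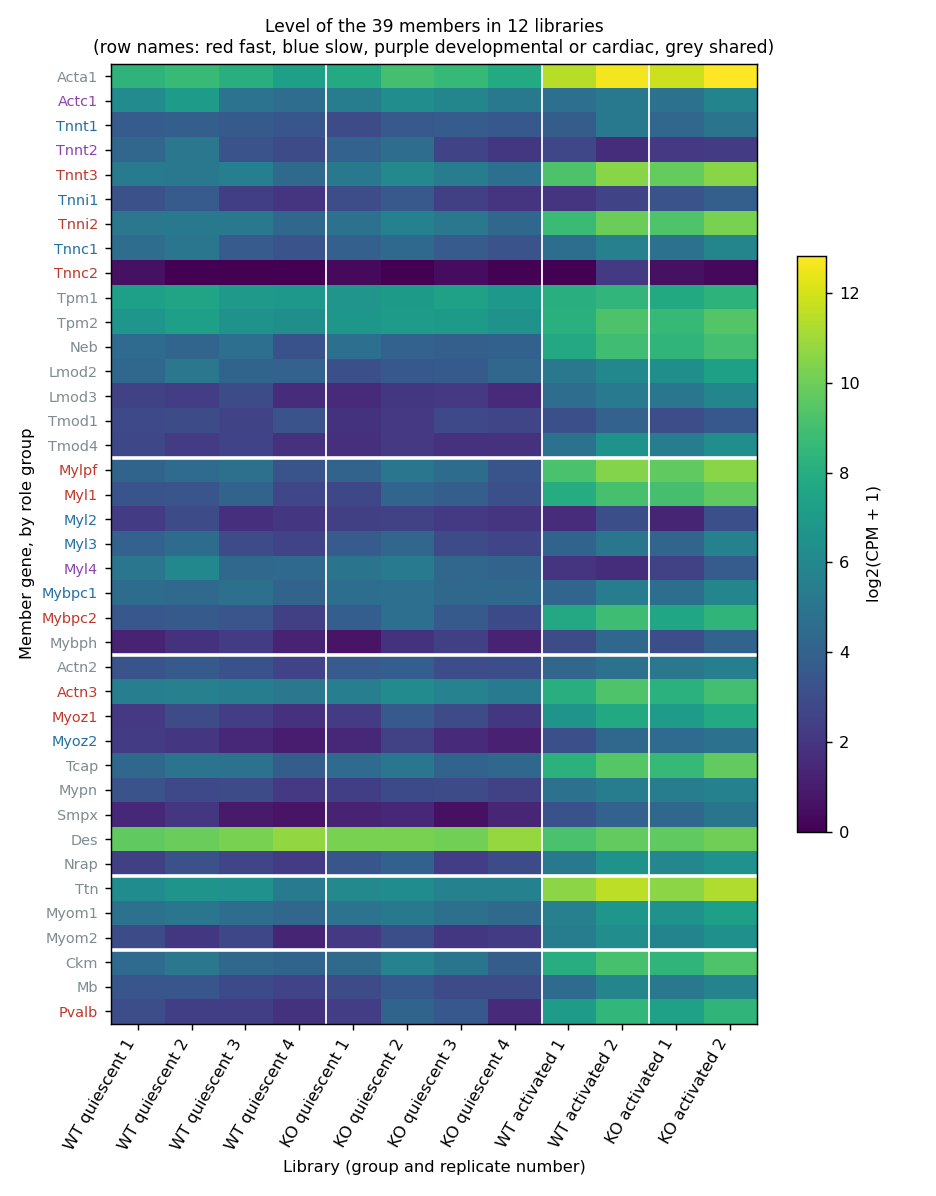
Level of each of the 39 members (rows, grouped by role from thin filament at the top to cytosolic proteins at the bottom) in the 12 libraries (columns), as log2(CPM + 1), with row names coloured by fibre type. The 4 activated libraries at the right were higher for most rows, Des was high in every library, Myl4 was lower in activated libraries, and Tnnc2 was at 0 to 0.470 CPM in quiescent and 0 to 3.5 CPM in activated libraries.

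Taken over all members, their counts made up 0.220 to 0.317% of the quiescent libraries, 1.04% and 1.42% of the activated WT libraries and 1.31% and 1.87% of the activated KO libraries. With the ribosomal RNA gene left out of the totals these activated shares were 1.19%, 2.37%, 1.48% and 2.63%. In these bulk libraries, a larger share of cells expressing a gene and more RNA per cell cannot be told apart.

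Promoter sequence is shown for the actin pair and the essential light chain pair, whose members differed in how they changed between the states. RefSeq promoter windows (GRCm38.p6) were found for 31 of the 39 members, in 37 windows. The stretches below cover the 150 bases upstream of each start site and are written 5′ to 3′ on the strand of the gene, with capitals marking matches to any of 4 searched motifs. Those were the E-box (CANNTG), the TATA box (TATAAA), the CArG box bound by serum response factor and the MEF2 site, each searched on both strands. The regions are chr8:123894776-123894925 on the minus strand for Acta1 (skeletal actin), chr2:114052876-114053025 on the minus strand for Actc1 (cardiac actin), chr1:66945057-66945206 on the minus strand for Myl1 and chr11:104550513-104550662 on the plus strand for Myl4.
Acta1: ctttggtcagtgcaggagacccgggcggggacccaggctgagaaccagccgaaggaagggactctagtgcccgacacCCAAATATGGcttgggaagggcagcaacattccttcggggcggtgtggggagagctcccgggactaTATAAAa
Actc1: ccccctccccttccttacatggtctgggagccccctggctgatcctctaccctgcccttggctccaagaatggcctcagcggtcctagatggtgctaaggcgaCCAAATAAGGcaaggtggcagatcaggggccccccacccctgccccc
Myl1: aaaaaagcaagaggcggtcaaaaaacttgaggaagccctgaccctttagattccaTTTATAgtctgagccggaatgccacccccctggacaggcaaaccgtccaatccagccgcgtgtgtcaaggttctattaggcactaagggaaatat
Myl4: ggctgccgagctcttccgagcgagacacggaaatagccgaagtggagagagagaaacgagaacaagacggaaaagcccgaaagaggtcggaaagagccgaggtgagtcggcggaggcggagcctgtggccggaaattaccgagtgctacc

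Acta1 and Actc1 each held a CArG box, Acta1 and Myl1 each held a TATA box (in Myl1 as its reverse complement), and the Myl4 stretch held none of the 4 motifs. Over the 250 bases upstream of the start, an E-box stood in 32 of 37 member windows (86.5%) and in 66.2% of all 32851 windows. A CArG box stood in 4 member windows (10.8%), those of Acta1, Actc1, Myl3 and Myom1, against 1.47% of all windows. A MEF2 site was found in 3 member windows (8.11%), of Myoz2, Pvalb and Ttn, against 1.69% of all, and a TATA box in 6 (16.2%) against 12.4%. Matches of different motifs overlapped in 0 member windows. These shares are a description of letters in a window and were not tested.

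The difference between the states was examined in each genotype. In WT, 27 of 38 members were called higher in activated libraries and 1 was called lower, where 9.59% of all 25771 genes tested were called higher and 15.7% lower. In KO, 30 members were called higher and 1 lower, beside 11% and 17.4% of all genes. The median log2 fold change of the members was 2.43 in WT and 3.05 in KO, whereas the median over all genes was -0.92 and -0.96. Activated and quiescent libraries did not overlap, with all activated ones higher, for 27 members in WT (17.6% of all genes) and 30 in KO (18.3%), and with all activated ones lower for 2 members in each genotype (38.4% and 36.1% of all genes). All 27 members called higher in WT were also called higher in KO, and Myl4 was the member called lower in both. The genotypes are separate sets of libraries, but every activated library shares its differences in depth, ribosomal RNA and sex-linked transcripts with the others. Tnnt1, Tnnc1 and Myl3, which encode slow isoforms, were called in KO alone, and the difference between the genotypes did not pass the test for any of these.

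**Figure D2:**
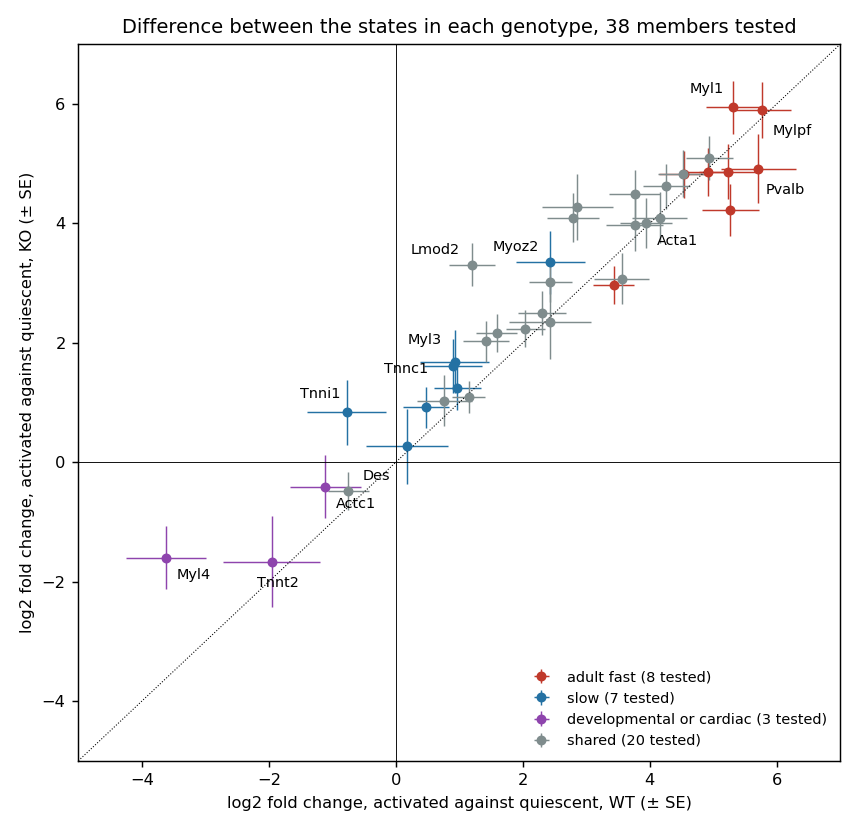
Log2 fold change of activated against quiescent libraries in WT (horizontal) and in KO (vertical) for the 38 members tested, with the standard error of each as bars, coloured by fibre type, and a dotted line where both are equal. The 8 adult fast members lay between 3.43 and 5.76 in WT, and the 3 developmental or cardiac members lay below 0 in both genotypes.

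Grouped by isoform use, the adult fast genes rose together. All 8 of the 9 fast members that could be tested were called higher in each genotype, with a median log2 fold change of 5.25 in WT and 4.86 in KO. Of 7 slow members, 1 was called in WT (Myoz2) and 4 in KO, with medians of 0.89 and 1.24. Of the 3 developmental or cardiac members, 1 was called and it fell, with medians of -1.95 and -1.60. Of the 20 members shared between fibre types, 18 were called higher in each genotype. The summed level of the fast members was 96.9 to 183 CPM in WT and 112 to 287 CPM in KO quiescent libraries, against 2552 and 6107 CPM in WT and 3622 and 6442 CPM in KO activated libraries. Slow members summed to 46.6 to 110 CPM in quiescent and 83.2 and 187 CPM in activated WT libraries, which overlapped, and to 50.9 to 93.3 CPM in quiescent and 117 and 243 CPM in activated KO libraries, which did not. Developmental or cardiac members summed to 49.2 to 230 CPM in quiescent and 33.5 and 39.8 CPM in activated WT libraries without overlap, and to 54.2 to 140 CPM in quiescent and 34.2 and 70.0 CPM in activated KO libraries with overlap. Per kb of exon, fast genes made up 7.16 to 15.1% of the summed level of all members in quiescent and 37.9 to 40.9% in activated libraries.

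**Figure D3:**
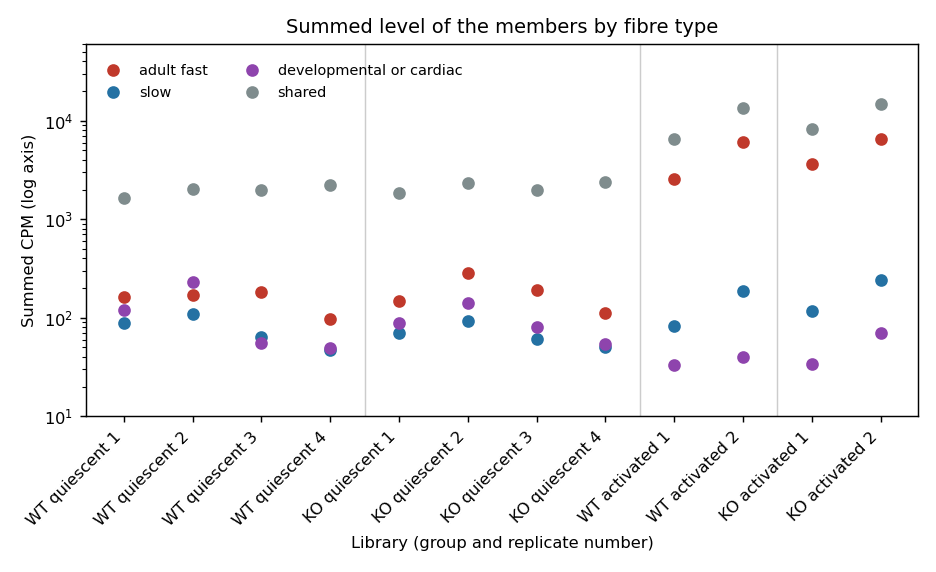
Summed CPM of the adult fast, slow, developmental or cardiac, and shared members in each of the 12 libraries, on a log axis. Fast members rose from 96.9 to 287 CPM in quiescent to 2552 to 6442 CPM in activated libraries, and within each activated genotype the library numbered 2 was higher for every class.

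The thin filament was led by Acta1, which encodes the actin of adult skeletal muscle. Acta1 stood at 319, 419, 274 and 158 CPM in WT quiescent libraries 1 to 4, at 228, 531, 386 and 228 CPM in KO quiescent libraries 1 to 4, at 2812 and 6131 CPM in WT activated and at 3725 and 7286 CPM in KO activated libraries. Every activated library lay above every quiescent one, and the genotypes overlapped within each state. Its log2 fold change between the states was 3.93 ± 0.41 (SE) in WT and 4.00 ± 0.41 in KO (adjusted p = 8.2e-07 and 6.2e-07, edgeR's quasi-likelihood test). Actc1, the cardiac actin that developing muscle also uses, was at 22.6 to 136 CPM in quiescent and 24.8 to 54.1 CPM in activated libraries and was called in neither genotype (-1.11 ± 0.56 in WT and -0.41 ± 0.53 in KO). The longest alignment of these 2 actin transcripts was 86.3% identical over 1132 bases, and a stretch of Acta1 of 250 bases was 91.2% identical to Actb, so some reads of actin genes may be shared between them.

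Troponin couples calcium to contraction through a tropomyosin-binding subunit (T), an inhibitory subunit (I) and a calcium-binding subunit (C). Tnnt3, fast troponin T, was at 38.5, 33.9, 45.7 and 20.9 CPM in WT quiescent, 34.8, 63.9, 40.7 and 24.6 CPM in KO quiescent, 600 and 1488 CPM in WT activated and 889 and 1484 CPM in KO activated libraries. Tnni2, fast troponin I, was at 33.4, 35.1, 35.5 and 18.3 CPM in WT quiescent, 26.9, 49.7, 33.9 and 19.1 CPM in KO quiescent, 428 and 996 CPM in WT activated and 620 and 1206 CPM in KO activated libraries. The states did not overlap for either gene, while WT and KO did in each state. Tnnt3 rose by 4.91 ± 0.40 on the log2 scale in WT and 4.86 ± 0.40 in KO (adjusted p = 4.9e-08 and 4.1e-08, quasi-likelihood test), and Tnni2 by 4.54 ± 0.39 and 4.82 ± 0.39 (9.0e-08 and 4.2e-08). Their slow counterparts changed less. Tnnt1 had log2 values of 0.97 ± 0.37 in WT (adjusted p = 0.054) and 1.24 ± 0.36 in KO (adjusted p = 0.013), and Tnni1 had -0.78 ± 0.62 and 0.83 ± 0.54, called in neither. Tnnc1, the slow and cardiac troponin C, had 0.89 ± 0.46 in WT and 1.61 ± 0.45 in KO, where it was called. Tnnt2, cardiac troponin T, was at 3.21 to 33.0 CPM in quiescent and 2.19 to 5.72 CPM in activated libraries and was not called (-1.95 ± 0.77 and -1.67 ± 0.77).

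Fast troponin C, Tnnc2, was the member that could not be tested. It had 0 to 9 counts per library, and 592 of its 800 exon bases (74%) overlap exons of Ube2c on the opposite strand. Whether the counting used strand was not given in the sources used here, so whether its reads were lost to that overlap was not tested. Smaller overlaps with genes on the opposite strand took 49.9% of the exon bases of Mybph (Adora1), 32.6% of Tmod1 (Tstd2), 27.6% of Mb (Gm49540) and 15.5% of Ckm (A930016O22Rik), and the values of these members are less certain for that reason.

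Among the other thin filament genes, Tpm1 and Tpm2, the tropomyosins that lie along actin, rose by 1.15 ± 0.26 and 2.04 ± 0.31 in WT and by 1.09 ± 0.26 and 2.23 ± 0.31 in KO on the log2 scale. Neb, the giant protein nebulin that runs the length of the thin filament, rose by 4.26 ± 0.37 and 4.62 ± 0.38. Lmod2 and Lmod3 encode leiomodins, which nucleate actin filaments, and Tmod1 and Tmod4 encode tropomodulins, which cap the slow-growing end of the filament. Lmod2 rose by 1.20 ± 0.36 in WT and 3.31 ± 0.36 in KO, Lmod3 by 2.79 ± 0.40 and 4.09 ± 0.41, and Tmod4 by 3.76 ± 0.40 and 4.49 ± 0.41. Tmod1, which is not specific to skeletal muscle, had 0.76 ± 0.44 and 1.03 ± 0.43 and was called in neither genotype. Across the group 9 of 15 thin filament members tested were called higher in WT and 11 in KO, and 0 were called lower in either. Without activated library 2 of the genotype, the calls were lost for Tpm1 in both (1.00 in WT and 0.81 in KO) and for Lmod2 in WT (0.77), and in the troponins for Tnnt1 (0.85) and Tnnc1 (0.97) in KO.

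Thick filament members held the largest rise in each genotype and, in edgeR on all libraries, the only called fall. Other settings called more falls, up to 4 in WT and 3 in KO with the replicate number as a block, which added Actc1 and Tnnt2 in both genotypes and Tnni1 in WT. Mylpf was at 16.4, 21.1, 25.3 and 9.01 CPM in WT quiescent, 15.7, 31.3, 21.8 and 8.97 CPM in KO quiescent, 562 and 1389 CPM in WT activated and 817 and 1497 CPM in KO activated libraries. Myl1 was at 8.98, 9.44, 16.1 and 5.64 CPM in WT quiescent, 5.79, 17.1, 13.8 and 7.89 CPM in KO quiescent, 244 and 555 CPM in WT activated and 528 and 842 CPM in KO activated libraries. Mybpc2, the fast myosin-binding protein C that sits on the thick filament, was at 10.3, 11.3, 9.34 and 4.43 CPM in WT quiescent, 13.5, 24.4, 11.3 and 6.42 CPM in KO quiescent, 215 and 465 CPM in WT activated and 185 and 331 CPM in KO activated libraries. For all 3 genes the activated libraries lay far above the quiescent ones, and the genotypes overlapped within each state. The log2 fold change of Mylpf was 5.76 ± 0.47 in WT and 5.90 ± 0.47 in KO, that of Myl1 was 5.31 ± 0.44 and 5.94 ± 0.44, and that of Mybpc2 was 5.27 ± 0.45 and 4.22 ± 0.43 (adjusted p between 2.1e-08 and 5.2e-07, quasi-likelihood test). A transcript of the pseudogene Mylf-ps was 99.3% identical to Myl1 over 421 bases, so part of the Myl1 count may belong to it.

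Values below 0 were found for 5 members in WT and 4 in KO, among them Tnnt2 (-1.95 and -1.67, not called). Myl4 was the only one of these called lower in edgeR on all libraries. It was at 31.3, 61.6, 18.6 and 20.0 CPM in WT quiescent, 30.2, 38.5, 17.9 and 15.7 CPM in KO quiescent, 2.94 and 2.19 CPM in WT activated and 4.62 and 12.1 CPM in KO activated libraries. All activated libraries lay below all quiescent ones. It fell by 3.62 ± 0.62 on the log2 scale in WT (12.3-fold, adjusted p = 0.00018) and by 1.60 ± 0.52 in KO (3.03-fold, adjusted p = 0.024), both in edgeR's quasi-likelihood test. In KO this call was lost without quiescent library 2 (-1.32) or without activated library 1 (-1.07). The slow and ventricular light chains moved less, with Myl2 at 0.17 ± 0.65 in WT and 0.26 ± 0.62 in KO and Myl3 at 0.93 ± 0.55 and 1.68 ± 0.53, of which the last was called. Mybpc1, slow myosin-binding protein C, had 0.48 ± 0.36 and 0.92 ± 0.35 and was not called. Mybph, a shorter relative of these proteins, rose by 2.43 ± 0.64 in WT and 2.35 ± 0.63 in KO. Without activated library 2 of the genotype the call of Mybph was lost in both (1.62 and 1.70), as was that of Myl3 in KO (0.77).

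At the Z-disc, 8 of 9 members were called higher in each genotype, and Des was the exception. Des, the intermediate filament desmin that links neighbouring myofibrils and is already made by satellite cells, was at 830, 953, 1226 and 1728 CPM in WT quiescent, 1200, 1233, 1107 and 1766 CPM in KO quiescent, 558 and 849 CPM in WT activated and 827 and 1068 CPM in KO activated libraries. Its states overlapped in WT and not in KO, and its log2 fold change was -0.75 ± 0.32 in WT and -0.49 ± 0.32 in KO (adjusted p = 0.083 and 0.23, quasi-likelihood test). Tcap, the telethonin that caps titin at the Z-disc, was at 18.9, 28.5, 26.8 and 12.8 CPM in WT quiescent, 21.1, 32.4, 15.7 and 18.6 CPM in KO quiescent, 304 and 693 CPM in WT activated and 381 and 862 CPM in KO activated libraries. Actn3, the alpha-actinin of fast fibres, was at 44.3, 47.3, 42.8 and 33.4 CPM in WT quiescent, 43.5, 72.5, 51.0 and 40.0 CPM in KO quiescent, 272 and 635 CPM in WT activated and 289 and 515 CPM in KO activated libraries. For both genes every activated library was above every quiescent one, with Tcap rising by 4.52 ± 0.39 and 4.83 ± 0.40 and Actn3 by 3.43 ± 0.32 and 2.96 ± 0.32 in WT and KO (adjusted p between 4.2e-08 and 9.7e-07). Actn2, the alpha-actinin found in all fibres, rose by 1.42 ± 0.36 and 2.02 ± 0.34. The calsarcins, which bind alpha-actinin and calcineurin, rose by 5.23 ± 0.46 and 4.86 ± 0.46 (Myoz1, fast) and by 2.43 ± 0.54 and 3.35 ± 0.53 (Myoz2, slow). Mypn, Smpx and Nrap, which bind actin or other Z-disc proteins or take part in myofibril assembly, rose by 2.43 to 3.56 in WT and by 3.02 to 4.27 in KO on the log2 scale. Without WT activated library 2 the calls of Actn2 (1.14) and Myoz2 (1.76) in WT were lost.

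Titin and the M-band proteins were called higher in both genotypes without exception. Ttn, the giant spring of the sarcomere, was at 73.7, 99.3, 88.7 and 37.9 CPM in WT quiescent, 65.8, 75.6, 49.1 and 48.5 CPM in KO quiescent, 1563 and 3028 CPM in WT activated and 1548 and 2525 CPM in KO activated libraries. Myom1, the myomesin that cross-links thick filaments, was at 26.9, 32.3, 23.5 and 18.1 CPM in WT quiescent, 29.0, 34.8, 25.3 and 20.5 CPM in KO quiescent, 47.5 and 105 CPM in WT activated and 93.8 and 151 CPM in KO activated libraries. Myom2, which is used by fast fibres, was counted here among the members shared between fibre types. It was at 6.63, 3.19, 5.92 and 1.49 CPM in WT quiescent, 3.44, 7.38, 3.24 and 3.68 CPM in KO quiescent, 42.1 and 76.2 CPM in WT activated and 53.9 and 84.4 CPM in KO activated libraries. For these 3 genes the states did not overlap and the genotypes did in each state, for Myom1 in activated libraries by a small margin. The log2 fold changes were 4.94 ± 0.36 and 5.09 ± 0.37 for Ttn, 1.59 ± 0.32 and 2.16 ± 0.31 for Myom1, and 3.76 ± 0.45 and 3.97 ± 0.45 for Myom2 in WT and KO. The Myom1 call in WT was lost without activated library 2, where its value was 0.98.

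The cytosolic proteins followed the same pattern. Ckm, the creatine kinase that buffers ATP, was at 21.8, 33.1, 18.5 and 16.4 CPM in WT quiescent, 20.4, 50.1, 30.2 and 12.9 CPM in KO quiescent, 250 and 550 CPM in WT activated and 336 and 629 CPM in KO activated libraries. Pvalb, the calcium buffer parvalbumin of fast fibres, was at 7.26, 4.26, 4.3 and 2.7 CPM in WT quiescent, 3.96, 16.4, 10.7 and 2.03 CPM in KO quiescent, 132 and 355 CPM in WT activated and 162 and 334 CPM in KO activated libraries. Mb, the oxygen-binding myoglobin, was at 9.87, 9.86, 6.32 and 5.01 CPM in WT quiescent, 6.89, 10.7, 6.56 and 6.52 CPM in KO quiescent, 21.4 and 56.5 CPM in WT activated and 34.2 and 52.2 CPM in KO activated libraries. None of the 3 overlapped between the states, and each overlapped between the genotypes. Pvalb rose by 5.71 ± 0.59 in WT and 4.91 ± 0.57 in KO, Ckm by 4.15 ± 0.43 and 4.09 ± 0.43, and Mb by 2.30 ± 0.38 and 2.50 ± 0.37 on the log2 scale.

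The order of the members by level per kb of exon differed between the states. In quiescent libraries Des was the highest member, at 316 ± 106 CPM per kb in WT and 353 ± 79.3 in KO (mean ± SD, n = 4), and Acta1 was next at 190 ± 70.7 and 224 ± 94.8. In activated libraries Acta1 came first at 2911 ± 1528 CPM per kb in WT and 3584 ± 1639 in KO (mean ± SD, n = 2), followed by Mylpf at 918 ± 550 and 1090 ± 453. Des then ranked 8 of the members in WT and 7 in KO at 187 ± 54.7 and 252 ± 45.4 CPM per kb. The ranges of mean ± SD met for Des and Acta1 in both quiescent groups and for Acta1 and Mylpf in activated WT, but not for Acta1 and Mylpf in activated KO. In quiescent libraries they did not meet for Acta1 and the member next below it, Actc1 in WT (39.9 ± 32.2) and Tpm2 in KO (39.3 ± 6.25). In the deposited FPKM table, which pools each group, Des was likewise the highest member of both quiescent groups (306 and 343 FPKM) and Acta1 of both activated groups (3022 and 3493 FPKM). Actc1 ranked 3 of the members in quiescent WT and 4 in quiescent KO, and 20 and 19 in activated WT and KO.

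Ratios within a library, per kb of exon, do not depend on the scaling between libraries and showed how unequally the isoforms changed. Whether a ratio lies above or below 1 depends on the exon lengths used, while its change between libraries does not. Acta1 exceeded Actc1 by 3.26 to 10.1 times in the 8 quiescent and by 119 to 182 times in the 4 activated libraries. The ratio of Tnnt3 to Tnnt1 went from 3.01 to 8.25 in quiescent to 59.2 to 70.2 in activated libraries, and that of Tnni2 to Tnni1 from 7.13 to 20.1 to 171 to 456. Myl1 was above Myl4 in 3 of 8 quiescent libraries (ratio 0.34 to 1.93) and in 4 of 4 activated libraries (156 to 567). Before division by length (2.07 kb for Myl1 and 4.64 kb for Myl4), Myl4 had more counts than Myl1 in every quiescent library. Myl1 was above Myl3 in 4 of 8 quiescent libraries, and above it by 14.6 to 29.8 times in the activated ones. Mybpc2 was above Mybpc1 in 1 of 8 quiescent libraries and in 4 of 4 activated libraries, where it led by 7.06 to 15.5 times. For all 10 isoform pairs examined the lowest activated ratio was above the highest quiescent one. Some activated ratios rest on few reads of the second gene, so their size is uncertain. The lowest activated counts were 5 for Myl4, 5 for Tnnt2, 6 for Myl2 and 12 for Tnni1. The ranges came closest for Actn3 to Actn2, at 4.86 to 9.39 in quiescent and 11.2 to 29.7 in activated libraries.

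**Figure D4:**
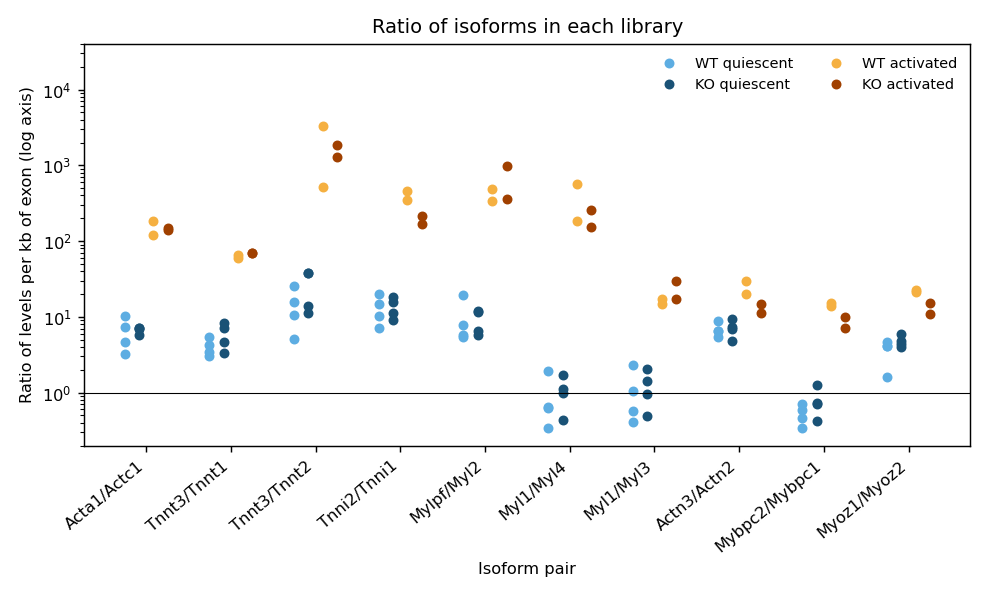
Ratio of the fast or adult isoform to its slow, cardiac or embryonic counterpart, per kb of exon and on a log axis, in each of the 12 libraries for 10 pairs, with WT and KO of each state in separate columns and a line at equality. In each pair the 4 activated libraries lay above the 8 quiescent ones, with Myl1 to Myl4 moving from 0.34 to 1.93 up to 156 to 567. Some activated ratios rest on few reads of the second gene, down to 5 for Myl4.

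The effect of the Cxcr4 deletion on the members was compared in each state. In quiescent libraries 0 of 38 members were called, where 4 of 25771 genes (0.0155%) were. With an unadjusted p under 0.05 there were 2 members, Lmod2 (-0.80 ± 0.30) and Lmod3 (-0.77 ± 0.35), beside 1.74% of all genes, and DESeq2 also called 0. The median log2 fold change of the members was 0.00 and that of all genes 0.02, with 19 members above and 19 below 0. The values ran from -0.80 (Lmod2) to 0.83 (Pvalb), with a median standard error of 0.35. All 8 fast members tested had values above 0 (median 0.27) and all 3 developmental or cardiac members values below 0 (median -0.36), with none of them called. Summed fast levels were 148, 287, 190 and 112 CPM in KO and 163, 170, 183 and 96.9 CPM in WT libraries 1 to 4. Summed developmental or cardiac levels were 87.6, 140, 80.4 and 54.2 CPM in KO and 121, 230, 55.8 and 49.2 CPM in WT. Both sums overlapped between the genotypes and were highest in a library numbered 2. Leaving out 1 library, the median of all members ran from -0.19 (KO library 2) to 0.15 (WT library 2). In none of the members did the 4 KO libraries lie wholly above or below the 4 WT libraries, beside 0.869% of all genes with all KO libraries higher and 0.827% with all lower.

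In activated libraries 0 of 38 members were called in edgeR's quasi-likelihood test and 0 in DESeq2, where 13 genes in all (0.0504%) were called in edgeR. An unadjusted p under 0.05 was reached by 3 members, beside 8.37% of all genes. Those were Lmod2 (1.31 ± 0.44, adjusted p = 0.36), Myl4 (1.66 ± 0.68, adjusted p = 0.51) and Tnni1 (1.52 ± 0.71, adjusted p = 0.59). Lmod2 was at 34.1 and 62.6 CPM in WT and at 82.7 and 154 CPM in KO activated libraries, and Tnni1 at 2.94 and 5.25 CPM in WT and 8.73 and 13.7 CPM in KO. Myl4 is given above, and its WT activated values rest on few reads. Each of the 3 genes had both KO libraries above both WT libraries. This held for 7 of 38 members, the others being Actn2 (0.81), Smpx (1.11), Myoz2 (0.92) and Mypn (0.44), beside 15.2% of all genes with KO higher and 9.5% with KO lower, and 0 members had both KO libraries lower.

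The median of the members was 0.27 in activated KO against WT and that of all genes was 0.00, and 31 members were above 0. This median turned to -0.26 without WT activated library 1 and to -0.31 without KO activated library 2, and it was 0.89 without WT activated library 2 and 0.59 without KO activated library 1, so each of the 4 libraries moved it. Within the activated WT pair, library 2 was higher than library 1 for 36 of 38 members, by a median of 2.2 times, and within the KO pair library 2 was higher for 38 of 38, by a median of 1.76 times. The activated KO library 2 was the highest of the 4 for 25 members and WT library 1 the lowest for 31. For these counts between libraries the matching shares of all genes were not counted. The libraries numbered 2 were also those with the larger share of the ribosomal RNA gene, and the part of that share in the members' levels was not tested. The median standard error was 0.48, larger than in quiescent libraries.

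**Figure D5:**
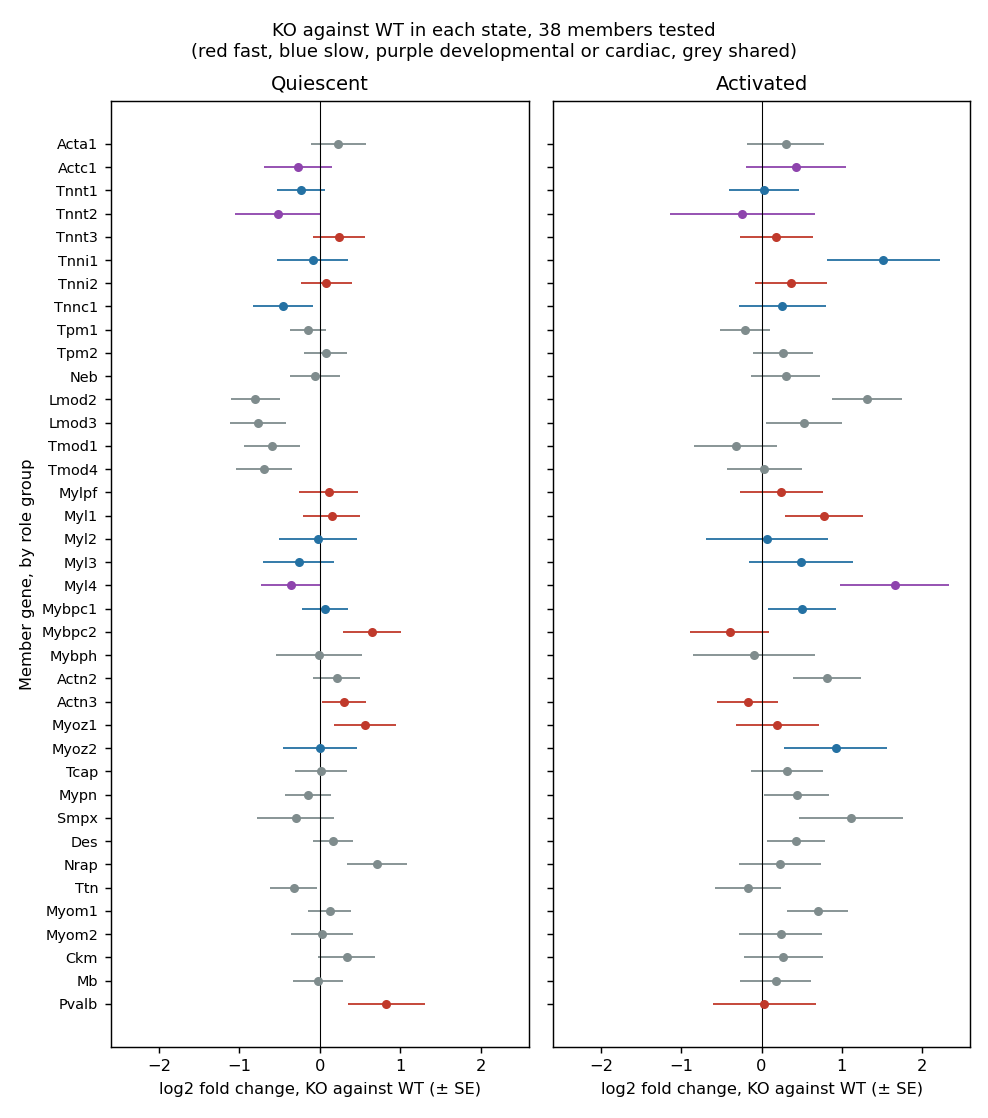
Log2 fold change of KO against WT, with its standard error, for the 38 members tested, in quiescent libraries (left, 4 against 4) and activated libraries (right, 2 against 2), coloured by fibre type. No member was called in either panel, the quiescent values lay between -0.80 and 0.83, and the activated values between -0.40 and 1.66.

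The difference of the KO effect between the states was tested in the same fit, and 0 of 38 members were called in edgeR's quasi-likelihood test and 0 in DESeq2, beside 0% of all genes in edgeR. With an unadjusted p under 0.05 there were 3 members, beside 6.59% of all genes. Lmod2 had the largest difference, 2.11 ± 0.53 (adjusted p = 0.32), since it was lower in KO in quiescent libraries (7.83, 10.5, 11.6 and 17.9 CPM against 18.9, 32.5, 16.8 and 15.4 CPM in WT) and higher in KO in activated ones. Myl4 had 2.02 ± 0.77 (adjusted p = 0.65) and Lmod3 1.30 ± 0.59 (adjusted p = 0.73). The median of all members was 0.27 and that of all genes 0.02.

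Other genes of the contractile programme were read from 4 lists that hold no member. Beside them, 9.59% of all genes tested were called higher and 15.7% lower in activated WT, and 11% and 17.4% in activated KO. Of 21 other sarcomere genes found (1 listed gene was not found by its symbol), 11 were called higher and 1 lower in activated WT, and 14 higher and 1 lower in activated KO. Of 6 myosin heavy chains, 3 were called higher and 1 lower in WT and 5 higher in KO. Of 16 genes of calcium handling and fibre metabolism, 13 were called higher in WT and 15 in KO, with 0 lower. Of 12 myogenic differentiation genes, 5 were called higher and 3 lower in WT, and 4 higher and 2 lower in KO. The summed level of the other sarcomere genes was nevertheless lower in activated (3012 to 5008 CPM) than in quiescent libraries (7719 to 18710 CPM). Flnc, the actin cross-linker filamin C, had the highest mean count of that list and was its called fall in WT (log2 fold change -3.87), and it is named here after its values were seen.

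Between KO and WT in activated libraries 1 gene of these lists was called, Myh8, the perinatal myosin heavy chain. It was at 1.31 and 1.75 CPM in WT and 14.6 and 23.5 CPM in KO activated libraries, with a log2 fold change of 3.69 ± 0.65 (adjusted p = 0.048, quasi-likelihood test), and at 1.46 to 6.67 CPM in quiescent libraries. The call was lost without WT activated library 1 (log2 fold change 3.34, adjusted p = 0.57) or KO activated library 2 (3.25, 0.33), with only the compared groups in the fit (3.62, 0.19), with DESeq2 size factors (adjusted p = 0.052) and with a filter on mean count (0.054). DESeq2 on all 12 libraries called 2 genes of these lists, Myh8 and Xirp1 (1.52, adjusted p = 0.0075), and 147 of all genes against 13 in edgeR. DESeq2 on the activated libraries alone was not run, so its calls there, for Sln and Cacng1 among others, are not known from this fit. The difference of the KO effect on Myh8 between the states was 4.95 ± 0.75 (adjusted p = 0.057). Myh3, the embryonic heavy chain, had 3.04 ± 0.95 (adjusted p = 0.31). Sln, the sarcolipin that inhibits the calcium pump, had 3.15 ± 0.74 (adjusted p = 0.14), and Cacng1, a calcium channel subunit, 1.77 ± 0.54 (adjusted p = 0.30). Sln was called with the replicate number as a block (adjusted p = 0.024, quasi-likelihood test) or with activated KO numbers crossed (0.0095). It was also called with only the compared groups in the fit (0.030). Without a filter on low counts 7 genes of these lists were called, namely Sln, Cacng1, Myh8, Myh3, Xirp1, Myog and Myf6. Xirp1 and Ankrd1, which associate with the sarcomere, had 1.58 ± 0.34 and 1.18 ± 0.39 (adjusted p = 0.12 and 0.37). Of the differentiation list, Myf6, a myogenic transcription factor, had 1.63 ± 0.45 (adjusted p = 0.24) and Dok7, an adaptor of the neuromuscular synapse, -1.40 ± 0.64 (adjusted p = 0.59). In quiescent libraries 0 genes of these 4 lists were called between KO and WT.

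Marker lists of cell types gave the setting of the state difference. Their counts stand beside 15.7% of all genes called lower in activated WT and 17.4% in activated KO, and 9.59% and 11% called higher. Satellite cell markers were counted in every group, with 9 of 11 called lower in activated WT and 10 of 11 in activated KO, and their summed level went from 5528 to 8921 CPM in quiescent to 2355 to 3564 CPM in activated libraries. Markers of adult myofibres went the other way, with 8 of 9 called higher in WT and 9 of 9 in KO, and a summed level of 181 to 576 CPM in quiescent and 3730 to 8022 CPM in activated libraries. Of those 9, 4 are myosin heavy chains and 5 belong to the calcium and metabolism list. Smooth muscle and pericyte markers were called lower for 5 of 5 genes in each genotype, Schwann cell markers for 3 of 4 in each, blood markers for 3 of 5 in WT and 4 of 5 in KO, and endothelial markers for 2 of 5 and 1 of 5. Fibroadipogenic markers were called lower for 2 of 5 in each genotype and higher for 1 in KO, and red cell markers for 0 of 5. No marker was at 0 in all libraries of a group. Myofibre transcripts thus rose together with the members, and the part of myofibre RNA in the members' rise was not tested.

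Between KO and WT in activated libraries 0 genes of the marker lists were called, and the same was true in quiescent libraries. The 2 genes with the smallest p in activated libraries, for each list but that of Schwann cells, were Vcam1 (-1.14 ± 0.44) and Itga7 (-0.60 ± 0.39) for satellite cells, Tek (-1.21 ± 0.46) and Cdh5 (-1.14 ± 0.77) for endothelium, Myh11 (-1.92 ± 0.67) and Acta2 (-0.90 ± 0.52) for smooth muscle, Pdgfra (0.80 ± 0.54) and Lum (0.93 ± 0.65) for fibroadipogenic cells, Lyz2 (0.76 ± 0.58) and Cd74 (0.72 ± 0.74) for blood, Hbb-bs (-0.76 ± 1.05) and Hba-a2 (-0.81 ± 1.18) for red cells and Myh1 (0.82 ± 0.56) and Casq1 (0.30 ± 0.43) for myofibres.

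Within the quiescent libraries many members had their highest or lowest value in the same libraries. The 2 libraries numbered 2 were the highest of the 8 for 30 of 38 members, 13 in WT library 2 and 17 in KO library 2, and WT library 4 was the lowest for 23. The matching shares of all genes were not counted, so this cannot be called particular to the members. The libraries numbered 2 were also the shallowest of the 8, at 12775593 counts in WT and 13075208 in KO. Des had its 2 highest values in the libraries numbered 4, at 1728 and 1766 CPM, where the other members were mostly low. The libraries numbered 4 also had the lowest scaling factors of the 8, 0.913 in WT and 0.894 in KO against 0.991 to 1.12 in the others. The parts of depth and scaling in this shared variation were not tested.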

How the data were processed

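Per the labels and the submitters' processing notes, reads were trimmed with Trim Galore (0.6.0), mapped to GRCm38.p6/mm10 with STAR (2.7.2a) and counted per GENCODE gene with Rsubread by the authors, who deposited raw counts per gene and library. The authors also deposited FPKM, pooled per group, which were used only for the order of levels. Strand setting and treatment of reads with several matches were not given in the sources used here.

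From the counts, genes were filtered with filterByExpr (25771 of 55401 tested), scaled by TMM and fitted in edgeR (4.0.16, R 4.3.3) on all 12 libraries with 4 group means; standard errors are the fold change divided by the square root of the quasi-likelihood F. Calls needed a Benjamini-Hochberg adjusted p under 0.05, a log2 fold change beyond 1 and a mean normalized count over 10. DESeq2 (1.42.0, on all 12 libraries), other filters and scalings, a replicate block and leaving out libraries were alternatives. The fit was run on simulated counts with planted log2 fold changes of 2 in size. These are larger than any member's KO effect within a state, so that run does not show the power for smaller changes. Exon lengths were those of all annotated exons of a gene merged, from GENCODE (GRCm38), whichever transcripts the cells used. Transcript similarity came from blastn (2.17.0, at least 200 bases and 90% identity). Members and lists were chosen with earlier results of these data known. All 39 members are named. Values by library are given for the 3 highest per role group by level per kb and for Myl4. They are also given for members with an unadjusted p under 0.05 between KO and WT, except Lmod3, which has fold changes only. Those members were chosen after their values were seen. Of other genes, Cxcr4 and the 2 of each list with the smallest p in activated KO against WT are named, except those of the Schwann cell list, which are not reported here. Total counts of 3172164 to 23717013 per library set the precision.

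Replicate numbers are shared between groups. Correlations of same-numbered quiescent libraries' deviations from their group means were 0.36, 0.16, -0.44 and 0.72 for numbers 1 to 4. In activated libraries it was -0.10, which the other pairing only mirrors with 2 libraries per group. Total counts of quiescent libraries 1 to 4 were 17532019, 12775593, 23058947 and 22785815 in WT. In KO they were 17238391, 13075208, 22897189 and 23717013, close to WT by number. Activated counts did not match by number, at 5427280 and 3172164 in WT and 3589006 and 5019788 in KO. The main fit did not pair the samples. Whether same-numbered libraries were processed together was not tested.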

Additional observations from a re-analysis of the deposited data

Results flagged for a closer look

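Among 78 groups of 4 quiescent values (39 members in each genotype), 5 held a library whose gap to its nearest neighbour took a larger share of the group's range than Dixon's limit at 95% for 4 samples. Chance gives such a value in about 1 of 20 groups. In WT, the lowest library for Tnni2 was at 18.3 CPM and the highest for Tnnc2 at 0.470 CPM, the other 3 libraries having no count of Tnnc2. In KO, the highest library was at 24.5 CPM for Neb, at 7.38 CPM for Myom2 and at 10.7 CPM for Mb. No member's KO effect differed between the states by the test of that difference.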

How the results depend on the processing

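The state, the libraries' depth, the ribosomal RNA share and the sex-linked transcripts moved together, and each activated group had 2 libraries, which limits every comparison of the states. Counts of 0 members called between KO and WT held under every alternative in quiescent and in activated libraries. For the difference of the KO effects 1 member (Lmod2) was called without a filter on low counts; the cause was not tested. Leaving out 1 library each gave 22 to 30 members called between the states in WT (28 with all libraries) and 26 to 32 in KO (31 with all), and 0 for the 3 comparisons of KO with WT. Without WT activated library 2, the calls of Actn2, Lmod2, Mybph, Myom1, Myoz2 and Tpm1 in WT were lost, with Lmod2 at 0.77 and Myom1 at 0.98. Without KO activated library 2, those of Mybph, Myl3, Tnnc1, Tnnt1 and Tpm1 in KO were lost, with Myl3 at 0.77 and Tnnc1 at 0.97. Leaving out both activated libraries numbered 2, chosen after seeing the data, lost the same calls and left 22 and 26. In all, 22 of the 28 members called in WT and 25 of the 31 in KO were called under every alternative. With the replicate number as a block the fit called 31 in WT (27 higher, 4 lower) and 33 in KO (30 higher, 3 lower), losing Myl3 in KO, and 0 between KO and WT; crossing the activated KO numbers, also chosen after seeing the data, gave 0. Over all genes, 13 were called in activated KO against WT, with a range over the alternatives from 0 (without WT activated library 1) to 325 (no filter), and 147 in DESeq2.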
